A study of Mus musculus with 7 samples.

Results

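The regions described here are 2 intervals of the mouse genome that hold olfactory receptor genes. They are chr2:85200001-90200000 and chr7:102400001-105000000 in the build mm10, cut into 500 and 260 windows of 10 kb, which are 760 of 246085 autosomal windows. The measurement is chromatin immunoprecipitation with sequencing (ChIP-seq) of H3K9me3, trimethylation of lysine 9 of histone H3, in the hippocampus of wild-type C57BL/6 mice at 3 months of age. The home cage group has 1 library. The enriched cage group has 2 libraries, from mice that spent 24 h in a larger cage with toys and then 1 week back in the home cage. All 3 libraries used the same H3K9me3 antibody, and the labels do not say how many mice went into each. The design asks whether the stay in the enriched cage left a difference in this mark.

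H3K9me3 is deposited by methyltransferases such as SETDB1 and SUV39H1, is bound by HP1 proteins and marks silent, compacted chromatin. Olfactory receptors are G protein-coupled receptors of olfactory sensory neurons, and their genes lie in arrays of tandem copies on many chromosomes. Each sensory neuron expresses a single receptor allele, and the receptor genes it keeps silent are known to carry H3K9me3. Class I receptors, a group shared with fish, are gathered in a single large mouse array on chromosome 7, which surrounds the beta-globin genes. Class II receptors make up the other arrays.

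By RefSeq gene models of GRCm38.p6, the same build, the chromosome 2 interval overlapped 286 receptor genes, of which 70 are pseudogenes, and 38 other gene models. The chromosome 7 interval overlapped 138 receptor genes, 28 of them pseudogenes, and 57 other models. Class was read from the MOR family number of each receptor, with families up to 42 taken as class I. It was class II for 251 of 286 genes on chromosome 2, and class I for 132 of 138 on chromosome 7. The receptor array on chromosome 2 starts at 85330967 and runs on to 90401674, beyond the end of the interval. The array on chromosome 7 runs from 102476773 to 105369317, so that interval also stops inside it.

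To show what lies at these genes, the 250 bases before the start of a gene model are given for 4 protein-coding receptors. These had the highest and the lowest mean gene-body signal in each interval among those with a RefSeq sequence (GRCm38.p6), a choice that used the signal itself. Capitals mark the motifs TATAAA and TAATTA on either strand, and each sequence is written 5′ to 3′ on the strand of its gene. Olfr1052 (MOR family 172, chr2:86297568-86297817, plus strand) and Olfr568 (MOR family 14, chr7:102876872-102877121, plus strand) had the highest signal. Olfr1176 (MOR family 174, chr2:88339317-88339566, plus strand) and Olfr603 (MOR family 32, chr7:103384001-103384250, minus strand) had the lowest.
Olfr1052: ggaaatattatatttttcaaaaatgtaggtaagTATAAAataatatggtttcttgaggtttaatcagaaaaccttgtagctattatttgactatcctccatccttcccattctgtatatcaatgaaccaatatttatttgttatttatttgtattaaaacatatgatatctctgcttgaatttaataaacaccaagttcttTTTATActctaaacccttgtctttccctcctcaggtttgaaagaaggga
Olfr1176: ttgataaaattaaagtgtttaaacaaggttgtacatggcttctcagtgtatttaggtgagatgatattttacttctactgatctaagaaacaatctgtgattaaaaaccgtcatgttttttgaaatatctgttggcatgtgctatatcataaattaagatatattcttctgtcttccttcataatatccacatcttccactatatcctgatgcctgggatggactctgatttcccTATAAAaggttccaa
Olfr568: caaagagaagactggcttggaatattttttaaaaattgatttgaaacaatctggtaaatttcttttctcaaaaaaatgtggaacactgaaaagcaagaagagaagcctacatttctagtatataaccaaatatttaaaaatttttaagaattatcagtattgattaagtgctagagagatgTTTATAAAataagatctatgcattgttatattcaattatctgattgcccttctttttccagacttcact
Olfr603: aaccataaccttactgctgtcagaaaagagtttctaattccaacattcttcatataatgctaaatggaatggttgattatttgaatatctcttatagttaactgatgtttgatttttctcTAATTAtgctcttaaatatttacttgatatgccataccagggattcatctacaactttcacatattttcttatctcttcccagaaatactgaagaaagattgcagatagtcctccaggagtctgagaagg
All 4 stretches were rich in A and T: the G and C content was 28.4% for Olfr1052, 32.4% for Olfr1176, 27.2% for Olfr568 and 32.4% for Olfr603. Olfr1176 held 1 CpG and the other stretches held 0. TATAAA occurred 2 times before Olfr1052, 1 time before Olfr1176, 2 times before Olfr568 on opposite strands of the same letters, and 0 times before Olfr603, which held TAATTA.

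Signal in what follows is the mean of the deposited coverage over a window or gene, divided by the library's median over the 238659 autosomal windows with coverage, and is written as times background. Values are listed in the order home cage, enriched replicate 1, enriched replicate 2 unless a sentence says otherwise. The libraries held 6188698, 13017447 and 8060241 fragments, and the median autosomal window held 23, 48 and 32 of them. No input track was used here, so these are densities relative to the rest of the same library and not enrichments over input. The 95th percentile of autosomal windows was 1.94, 1.91 and 1.66 times background, so enriched replicate 2 had the narrowest spread across the genome. Poisson intervals below cover counting error only.

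Both receptor intervals carried more H3K9me3 signal than the median autosomal window in all 3 libraries. The median window of the chromosome 2 interval had 1.38 times background in the home cage library, 1.42 in enriched replicate 1 and 1.13 in enriched replicate 2. The median window of the chromosome 7 interval had 1.44, 1.49 and 1.14 times background. Against the median of windows with at least 90% of their bases covered, which are picked by their own fragments, the levels were 1.05, 1.11 and 0.907 for chromosome 2 and 1.09, 1.16 and 0.915 for chromosome 7, so enriched replicate 2 lay below that background. Enriched replicate 2 was the lowest library in both intervals, and the other 2 libraries lay close together. Hippocampus is a mixture of cell types, so more cells with the mark and more of it per cell cannot be told apart, and a ChIP track holds no marker expression to check the tissue by.

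These medians stood at the 80.3, 84.5 and 66.2 percentile of autosomal windows on chromosome 2 and at the 83.3, 87.1 and 67.0 percentile on chromosome 7. On chromosome 2, 295 of 500 windows (59.0%) were over 1 times background in all 3 libraries, and on chromosome 7 164 of 260 (63.1%), against 30.5% of all autosomal windows. Windows over 1.5 times in all 3 libraries numbered 54 (10.8%) and 34 (13.1%), against 5.43%. At over 2 times in all 3 libraries there were 1 window (0.200%) on chromosome 2 and 5 (1.92%) on chromosome 7, against 1.39% of autosomal windows, so at that level chromosome 2 lay below the genome-wide share and chromosome 7 near it. Windows under 0.5 times in all 3 libraries were about as frequent as elsewhere, 10 (2.00%) and 5 (1.92%) against 2.38%.

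**Figure D1:**
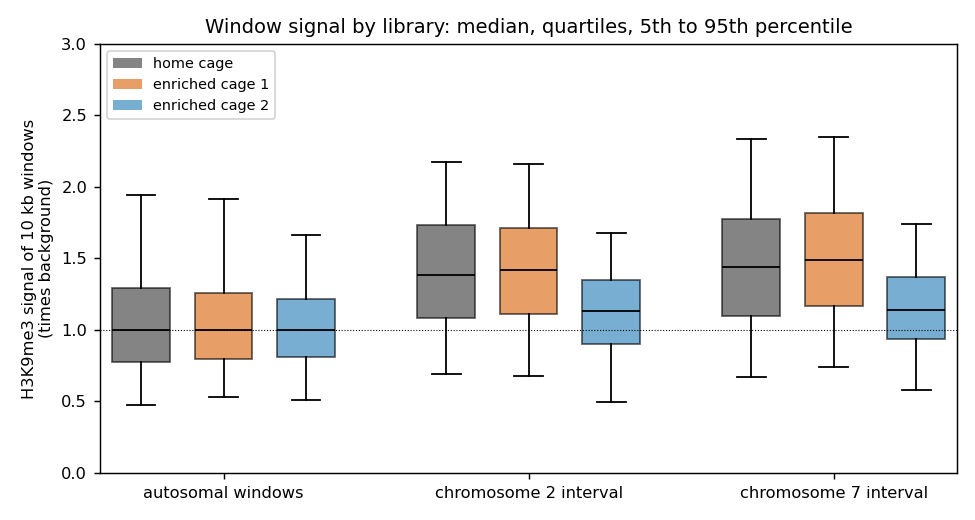
Signal of 10 kb windows (vertical axis, times background) in all autosomal windows with coverage and in each interval, by library. Boxes give the median and quartiles and whiskers the 5th and 95th percentiles; the medians of both intervals lie between 1.13 and 1.49, and those of enriched replicate 2 are the lowest.

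The flanks of both arrays had lower medians than the intervals. In the 1 Mb before the chromosome 2 interval the median window had 0.93, 0.96 and 0.99 times background, and in the 1 Mb after it 0.79, 0.80 and 0.82. Around the chromosome 7 interval the medians were 0.87, 0.83 and 1.01 before it and 0.92, 0.85 and 0.95 after it. The mean signal inside the chromosome 2 interval was 1.61, 1.62 and 1.24 times that of its flanks, and inside the chromosome 7 interval 1.58, 1.69 and 1.24 times, so every library showed the same direction. With 3 libraries an exact two-sided sign-flip test cannot go below p = 0.25, and it gave 0.25 for both intervals. This is 1 of 15 comparisons made within libraries by that test, and after Benjamini-Hochberg adjustment the smallest p was 0.268, so none of them could pass a threshold of 0.05. The receptor genes that lie just beyond both intervals are part of the flanks, which also contain stretches with little or no coverage. Over windows with at least 80% of their bases under a fragment in any library, a limit chosen after the data were seen, the mean was 1.52, 1.53 and 1.21 times background inside the chromosome 2 interval (402 windows) and 1.03, 1.03 and 1.05 in its flanks (139). For chromosome 7 these means were 1.57, 1.63 and 1.25 (207) and 1.06, 1.03 and 1.08 (154).

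Signal did not step up at the first base of either interval, and on chromosome 7 it ran on past the last. At the start of the chromosome 2 array the 100 kb segments at 85300001 and 85400001 had 1.07, 1.00 and 0.97 and 1.15, 1.11 and 1.02 times background, near the 1.09, 1.14 and 1.17 of the flank segment at 84800001. Past its end the segment at 90200001, which still holds 5 receptor genes, had 0.67, 0.71 and 0.53, with 43.0% of its bases under a fragment. On chromosome 7 the first segment of the interval was lower than the flank segment before it, at 102300001, which had 1.06, 0.96 and 1.07. Past its end, at 105000001, signal was still 1.64, 1.64 and 1.19, over 8 receptor genes.

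Along the chromosome 2 interval the 3 libraries shared the main highs and lows of 100 kb segments. The profile began at 0.86, 0.97 and 0.90 times background in the segment at 85200001, which holds no receptor gene, and reached 1.60, 1.49 and 1.24 in the segment at 85800001. The longest stretch of high segments ran from 87000001 to 87700000, with its peak in enriched replicate 1 at 87200001 (1.7, 1.84 and 1.36). Within it lie Pramel7 and Pramel6, members of a family of leucine-rich repeat genes active in germ cells and early embryos, and Nlk-ps1, a pseudogene. Lower stretches followed at 87700001, with 1.25, 1.27 and 0.93 times background, and at 88100001, with 1.03, 1.10 and 0.86. The single highest segment in the home cage was at 89300001, with 1.83, 1.79 and 1.32. The lowest, at 89200001, had 0.81, 0.92 and 0.70, and only 49.8% of its bases lay under a fragment in any library. In that segment the windows from 89210001 to 89240000 were listed at 0 in all 3 libraries, as were those from 90170001 to 90200000, which makes 6 of 500 windows.

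On chromosome 7 the lowest segment was the one at 102400001, with 0.92, 0.89 and 0.84 times background. It holds the end of Stim1, the calcium sensor of the endoplasmic reticulum, and Rrm1, the large subunit of ribonucleotide reductase. The next segment, at 102500001, had 1.55, 1.57 and 1.17. Other high segments included those at 103000001 (1.74, 1.93 and 1.28), at 104000001 (1.69, 1.83 and 1.25), at 104600001 (1.72, 1.92 and 1.19), at 104800001 (1.71, 1.91 and 1.31) and at the end of the interval, at 104900001 (1.98, 1.89 and 1.52). The last of these was the highest segment in the home cage and in enriched replicate 2, and the segment at 103000001 was the highest in enriched replicate 1. The segment with the beta-globin genes, at 103800001, lay lower than both neighbours in all 3 libraries, with 1.25, 1.19 and 1.14.

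**Figure D2:**
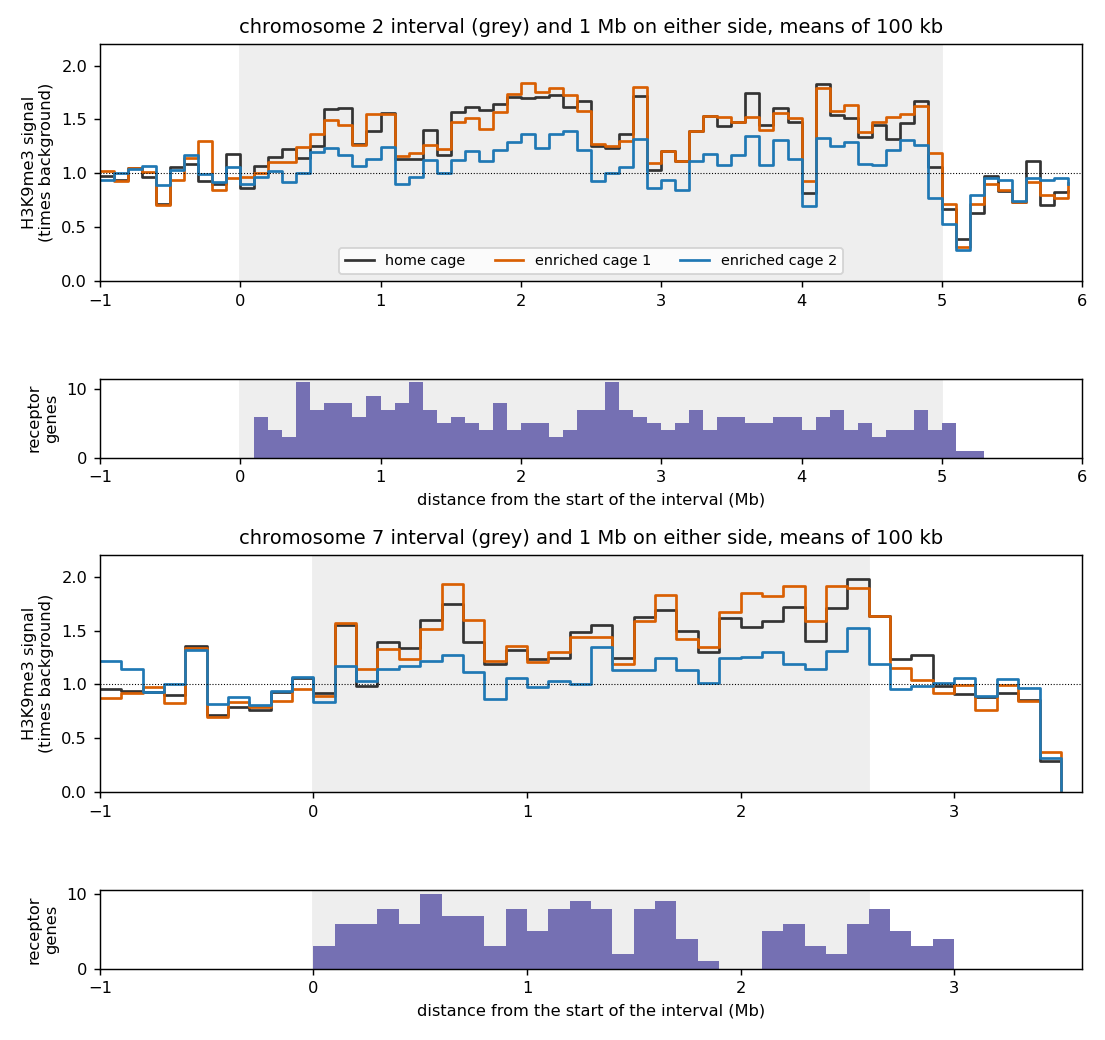
Mean H3K9me3 signal of 100 kb segments (times background) against the distance in Mb from the start of each interval, for 3 libraries, with the number of receptor genes per segment below each profile. The grey area is the interval; signal is mostly above 1 inside it, and enriched replicate 2 is the lowest library in 49 of 50 segments on chromosome 2 and in 25 of 26 on chromosome 7.

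The number of receptor genes in a segment did not order the segments by signal. Across the 50 segments of chromosome 2 Spearman's rho between receptor genes and signal was 0.02, 0.01 and -0.01, and across the 26 segments of chromosome 7 it was 0.20, 0.04 and 0.04. The share of bases under a fragment did order them, with rho of 0.82, 0.75 and 0.82 on chromosome 2 and 0.62, 0.43 and 0.61 on chromosome 7. Neighbouring segments are not independent, and this share is made from the same fragments as the signal, so these are descriptions. How much of the profile follows the share of the sequence that reads can be placed on was not tested.

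The medians of windows with and without a receptor gene differed in opposite directions in the intervals. On chromosome 2 the 281 windows with a receptor gene had medians of 1.34, 1.40 and 1.11 times background, and the 219 without had 1.48, 1.5 and 1.18. On chromosome 7 the 140 windows with a receptor gene had 1.51, 1.54 and 1.17, and the 120 without had 1.30, 1.36 and 1.09. The direction of the medians was the same in all 3 libraries within each interval (exact sign-flip p = 0.25 for both, the smallest possible). On the mean, chromosome 2 had 1.39, 1.39 and 1.13 with a receptor gene and 1.44, 1.45 and 1.10 without, so the order turned in enriched replicate 2. The chromosome 7 means, 1.52, 1.55 and 1.19 against 1.38, 1.46 and 1.11, kept the order of the medians. The windows without a receptor gene on chromosome 7 include low ones, such as those of Stim1 and Rrm1, and also the highest windows of that interval. Over 2 times background were 16.7%, 19.2% and 5.00% of them, against 9.29%, 12.9% and 0% of those with a receptor gene.

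Single windows reached up to 4 times background. The highest of chromosome 2 was chr2:89380001-89390000, which holds part of the pseudogene Olfr1235-ps1, with 4.11, 2.96 and 2.98 times background from 95, 143 and 94 fragments. Next were chr2:86830001-86840000, with 2.62, 2.51 and 1.87, and chr2:87560001-87570000, with 2.59, 2.62 and 1.76, and neither overlaps a receptor gene. On chromosome 7 the highest windows were chr7:104900001-104910000 (2.93, 3.04 and 2.53), chr7:104110001-104120000 (3.28, 2.87 and 2.19) and chr7:104750001-104760000 (2.80, 3.20 and 2.14). None of these 3 overlaps a receptor gene.

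The lowest windows were sought among those with at least 80% of their bases under a fragment, a limit set after the data were seen. On chromosome 7 they were chr7:102420001-102430000 in Stim1, with 0.56, 0.86 and 0.66 times background, chr7:102460001-102470000 in Rrm1, with 0.81, 0.62 and 0.73, and chr7:102410001-102420000 in Stim1, with 0.77, 0.91 and 0.64. On chromosome 2 they were the window at 88270001 with Olfr1173 (1.01, 0.65 and 0.67), the window at 85240001 in the noncoding RNA Gm13715 (0.70, 0.97 and 0.76) and the window at 86450001 with Olfr1066 (0.90, 0.81 and 0.73). With a limit of 95%, which only 98 and 57 windows meet, the lowest were at 85250001, 89570001 with Olfr1245 and 86680001 on chromosome 2, and at 102480001 with Olfr544, 102850001 with Olfr566 and 103850001 with Hbb-y on chromosome 7. All of those had means near or above background.

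Unbroken runs of windows over background in all 3 libraries were short beside the intervals. On chromosome 2 there were 113 such runs, the longest of 120 kb from 88840001 to 88960000, with 1.61, 1.53 and 1.22 times background. On chromosome 7 there were 50, the longest of 110 kb from 104890001 to 105000000, with 1.79, 1.76 and 1.43. Runs were sought only inside the intervals, so that run was cut at the last base and its full length was not measured. Counting error can also break a run, and run lengths elsewhere in the genome are not given here. Over 1.5 times background in all 3 libraries, the longest run of chromosome 2 was the 40 kb from 87480001 to 87520000, where Pramel7 and Pramel6 lie (2.02, 1.86 and 1.69). The longest of chromosome 7 was the 30 kb from 103050001 to 103080000 (1.78, 2.24 and 1.62).

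The chromosome 7 interval was slightly higher than the chromosome 2 interval in each library. The log2 ratio of their medians, chromosome 2 over chromosome 7, was -0.05, -0.07 and -0.01, with a mean of -0.05 ± 0.03 (SD, n = 3 libraries, exact sign-flip p = 0.25). On mean signal the chromosome 2 interval had 1.41 (95% Poisson interval 1.39 to 1.43), 1.42 (1.40 to 1.43) and 1.12 (1.10 to 1.14) times background. The chromosome 7 interval had 1.46 (1.43 to 1.49), 1.51 (1.49 to 1.53) and 1.15 (1.13 to 1.17). The counting intervals of the arrays were apart only in enriched replicate 1, the deepest library.

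The difference was larger over the receptor genes themselves. Summed over all bases of receptor gene models, chromosome 2 had 1.45 (1.38 to 1.53), 1.47 (1.42 to 1.53) and 1.18 (1.12 to 1.24) times background, from 1380, 2932 and 1527 fragments. Chromosome 7 had 1.63 (1.52 to 1.75), 1.82 (1.74 to 1.90) and 1.37 (1.29 to 1.46), from 815, 1902 and 935 fragments. The log2 ratio, chromosome 2 over chromosome 7, was -0.17, -0.31 and -0.22 (exact sign-flip p = 0.25), and the intervals did not touch in enriched replicates 1 and 2 and overlapped by a narrow margin in the home cage library.

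Gene by gene, 111 of 286 receptor genes on chromosome 2 (38.8%) and 73 of 138 on chromosome 7 (52.9%) were over background in all 3 libraries, against 25.3% of 3427 autosomal gene models of similar length (700 to 1200 bases) that are not receptors. The share among 995 receptor genes elsewhere on the autosomes was 48.7%. Over 2 times background in all 3 libraries were 5 genes on chromosome 2 (1.75%) and 19 on chromosome 7 (13.8%), against 5.75% of the non-receptor models of 700 to 1200 bases. Under background in all 3 were 22 (7.69%) and 3 (2.17%), against 26.1% of those models. Of the 995 receptor genes elsewhere, 102 were over 2 times background in all 3 libraries and 93 were under background in all 3. A single receptor gene held few fragments, with medians of 3, 7 and 4 on chromosome 2 and 4, 10 and 5 on chromosome 7, so the order of single genes is loose. Receptor genes are also near-copies of each other, and how reads with several matches were treated is not given in the sources used here.

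The extremes show that looseness. Olfr568, the highest receptor of chromosome 7, had 5.70, 2.38 and 2.78 times background from 12, 11 and 8 fragments, so its lead came from the home cage library. Olfr599 had 3.83, 4.23 and 2.12, and Olfr640 4.13, 3.95 and 1.91. Olfr577 (2.28, 2.91 and 4.98) and the pseudogene Olfr587-ps1 (4.52, 2.18 and 3.98) completed the highest 5. Olfr603 was the lowest, with 0.46, 0.00 and 0.34 from 1, 0 and 1 fragments, followed by Olfr545, Olfr597, Olfr68 and Olfr557.

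On chromosome 2 the highest were the pseudogenes Olfr1235-ps1 (4.40, 2.49 and 5.04), Olfr1004-ps1 (4.61, 1.94 and 4.65) and Olfr1268-ps1 (3.99, 3.60 and 3.07) and the coding genes Olfr1222 (3.03, 2.60 and 3.60) and Olfr1052 (3.36, 1.98 and 3.22). The lowest 5 were all pseudogenes: Olfr1227-ps1, listed at 0 in all 3 libraries beside the windows with no coverage, and Olfr1139-ps1, Olfr1083-ps, Olfr1192-ps1 and Olfr1069-ps1. Pseudogenes thus stood at both ends of the chromosome 2 array.

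Summed over genes, coding and pseudogene bodies of chromosome 2 did not differ in a shared direction: 1.48, 1.49 and 1.17 times background for 216 coding genes, and 1.32, 1.39 and 1.22 for 70 pseudogenes, with the order turned in enriched replicate 2 (exact sign-flip p = 0.50). On chromosome 7 the 28 pseudogenes were together higher in each library, with 2.17 (1.79 to 2.59), 2.25 (1.99 to 2.55) and 1.54 (1.28 to 1.85) against 1.57 (1.45 to 1.69), 1.77 (1.68 to 1.85) and 1.35 (1.26 to 1.45) for 110 coding genes (exact sign-flip p = 0.25). The counting intervals were apart in the home cage library and enriched replicate 1 and overlapped in enriched replicate 2. Gene by gene this order did not hold: the medians were 1.83, 1.98 and 1.39 for coding genes and 1.76, 2.28 and 1.35 for pseudogenes. Over background in all 3 libraries were 62 of 110 coding genes (56.4%) and 11 of 28 pseudogenes (39.3%).

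Receptor families, numbered by sequence similarity in the MOR system, differed within each array. Of 20 families with at least 5 genes on chromosome 2, 10 were over background in all 3 libraries and 2 were under it in all 3. The highest was family 231, with 2.02 (1.7 to 2.39), 1.81 (1.59 to 2.04) and 1.33 (1.10 to 1.59) times background over 15 genes. The lowest was family 203, with 0.89 (0.56 to 1.30), 0.73 (0.53 to 0.99) and 0.46 (0.26 to 0.72) over 7 genes, and its counting intervals lay below those of family 231 in all 3 libraries. Family 190 was the other family under background, with 0.82, 0.94 and 0.80, each with an interval that reached above 1.

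On chromosome 7, 6 of 7 such families were over background in all 3 libraries. Family 12 had 2.88 (1.97 to 4.17), 2.77 (2.13 to 3.59) and 2.13 (1.44 to 3.05) over 5 genes, family 13 had 2.71, 2.71 and 1.75 over 6 genes, and family 8 had 2.35, 2.74 and 1.97 over 7 genes. The exception was family 32, to which Olfr603 belongs, with 2.00, 2.10 and 0.87 over 7 genes. The families named as highest and lowest were picked by these values, which are a description. No share for pooled receptor families elsewhere, or for sets of other genes of like size, is given here. The family counts of both arrays therefore cannot be called particular to them.

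A finer profile was drawn around 181 RefSeq start entries of receptor genes on chromosome 2 and 95 on chromosome 7. These entries cover 180 of 286 and 95 of 138 receptor genes. Among protein-coding models the length was a multiple of 3 for 162 of 216 and 89 of 110, as in a model that holds only the coding exon. For such models the start is that of the coding sequence, and noncoding exons of receptor genes can lie farther upstream.

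In both intervals the signal stepped up at the start of the gene model. In the 500 bases before it the mean was 0.98, 1.04 and 0.84 times background on chromosome 2 and 1.31, 1.46 and 0.99 on chromosome 7. In the 1000 bases from the start it was 1.5, 1.56 and 1.27 on chromosome 2 and 1.91, 2.15 and 1.62 on chromosome 7. From 1000 to 2000 bases past the start it fell again, to 1.27, 1.20 and 0.996 on chromosome 2 and 1.39, 1.38 and 1.07 on chromosome 7. The gene bodies were thus a local rise with lower signal on both sides, and the low signal was not limited to the upstream side. The step was 1.52, 1.5 and 1.51 times on chromosome 2 and 1.46, 1.47 and 1.63 times on chromosome 7, the same direction in 3 of 3 libraries (exact sign-flip p = 0.25 for each, the smallest possible).

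The arrays differed in how this step was made up. On chromosome 2 the gene bodies had 1.01, 1.04 and 1.10 times the signal of the bases 5000 to 10000 away, and the upstream stretch was the low point, with 0.66, 0.69 and 0.73 times. On chromosome 7 the bodies stood above their surroundings, with 1.24, 1.39 and 1.33 times, and the upstream stretch was less reduced, with 0.85, 0.94 and 0.81 times. The step was present in models under 1000 bases (1.59, 1.7 and 1.69 times on chromosome 2, 1.51, 1.60 and 1.58 on chromosome 7) and in longer ones (1.40, 1.22 and 1.25, and 1.37, 1.26 and 1.77).

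**Figure D3:**
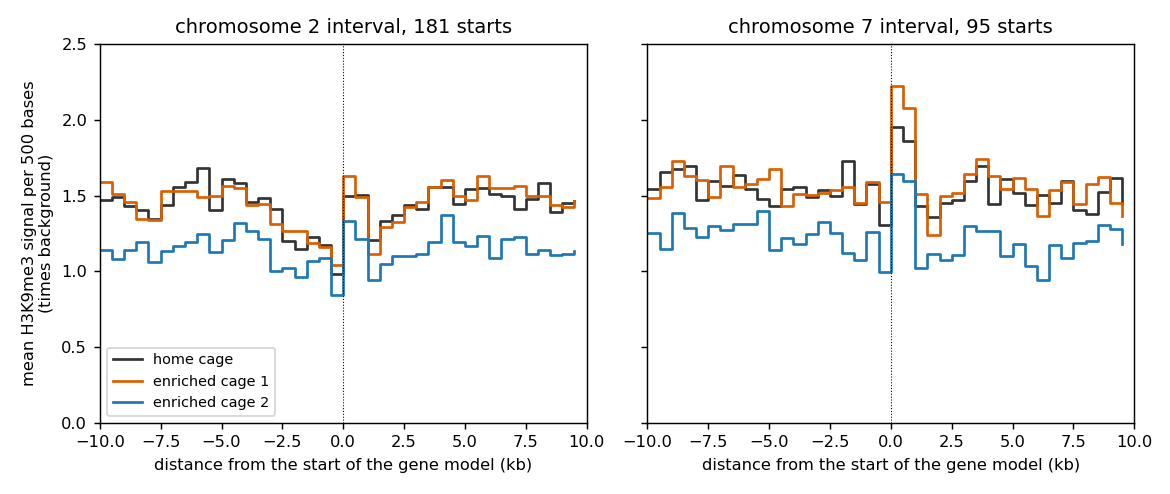
Mean H3K9me3 signal in bins of 500 bases (times background) against the distance in kb from the start of receptor gene models, by library. A low bin just before the start and higher bins over the gene body are visible in both intervals, and the bodies rise above their surroundings on chromosome 7.

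The stretches around these starts (250 bases before to 50 after) were rich in A and T, as in the 4 sequences above. Their median G and C content was 32.0% on chromosome 2 and 37.3% on chromosome 7, against 36.3% for receptor genes elsewhere on the autosomes and 53.3% for all other autosomal genes. Signal over them was 0.68, 0.96 and 0.77 times background on chromosome 2 (median of 181) and 1.12, 1.45 and 0.87 on chromosome 7 (median of 95). Receptor genes elsewhere had 1.09, 1.325 and 0.98, and all other autosomal genes 0.62, 0.76 and 0.83. The arrays thus differed in base composition as well as in signal, but all these groups were not in the same order for both. The part of base composition in the difference between the arrays was not tested. Among stretches of 30 to 35% G and C, the medians were 0.65, 1.10 and 0.88 on chromosome 2 (83), 0.88, 1.22 and 0.86 on chromosome 7 (31) and 0.67, 0.69 and 0.55 for genes that are not receptors (551). At 35 to 40% they were 1.36, 1.11 and 0.82 (35), 1.24, 1.62 and 0.60 (29) and 0.64, 0.74 and 0.67 (1735). In these 2 bins the arrays were not ordered alike in the 3 libraries. At 40 to 45% chromosome 7 was above chromosome 2 in all 3, with 1.41, 1.44 and 1.21 (23) against 1.00, 1.21 and 0.98 (6). The part of base composition in the step at the start was not tested.

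Motifs of factors known to act at receptor promoters were counted in the same 300 bases on both strands. TAATTA, the core bound by homeodomain factors such as Lhx2, was found in 44 of 181 stretches on chromosome 2 (24.3%) and 13 of 95 on chromosome 7 (13.7%), against 5.27% of all autosomal stretches. CCCNNGGGA, the core bound by Olf/Ebf factors, was found in 3 (1.66%) and 2 (2.11%), against 6.68%. TATAAA was found in 102 (56.4%) and 39 (41.1%), against 13.6%. These shares are of letters only and run with the low G and C content.

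Most other genes of the chromosome 7 interval lay above background. Of 57 models, 35 were over background in all 3 libraries (61.4%), against 25.75% of 45295 autosomal gene models that are no receptors. Under it in all 3 were 6 of 57, against 16203 of those 45295. The 6 Usp17l genes, which encode deubiquitinating enzymes, together had 1.69 (1.38 to 2.03), 1.82 (1.61 to 2.07) and 1.34 (1.11 to 1.61). The adult beta-globin genes Hbb-bt and Hbb-bs together had 0.37 (0.04 to 1.11), 0.48 (0.21 to 1.06) and 0.62 (0.18 to 1.32) times background. These values rest on 2, 7 and 5 fragments, and each counting interval reached above background. They cannot be read as absence of the mark. Around the starts, in stretches cut as for receptor genes, Hbb-bt had 0, 1.81 and 2.06 and Hbb-bs 0.825, 3.37 and 2.91. Signal there was thus below background only in the home cage library. The part of reads with several matches in the low body values was not tested. The embryonic and other members Hbb-bh3, Hbb-bh2, Hbb-bh1 and Hbb-y together had 2.18 (1.46 to 3.08), 2.00 (1.51 to 2.57) and 1.35 (0.89 to 2.00), from 30, 58 and 26 fragments. The counting intervals of these groups were apart in the home cage library and enriched replicate 1 and overlapped in enriched replicate 2. Single values were 0.31, 0.64 and 0.35 for Hbb-bt, 0.42, 0.32 and 0.89 for Hbb-bs, 3.20, 2.08 and 1.01 for Hbb-bh3, 1.5, 2.35 and 1.80 for Hbb-bh2, 2.07, 1.64 and 1.80 for Hbb-bh1 and 2.42, 1.85 and 0.53 for Hbb-y.

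Of 12 Trim genes in the interval, 8 were over background in all 3 libraries (66.7%) and 1 was under it in all 3 (8.33%). Over all autosomal protein-coding genes that are no receptors these shares were 23.5% and 49.2%. Among the Trim genes, which encode ubiquitin ligases and restriction factors, Trim30c had 2.07, 1.85 and 1.12, Trim30d 1.41, 1.95 and 1.26, Trim30a 1.47, 1.75 and 1.12 and Trim12a 1.55, 1.78 and 1.38. Trim21 (1.21, 1.54 and 1.28), Trim6 (1.22, 1.39 and 1.09), Trim5 (1.20, 1.22 and 0.96), Trim34b (1.18, 1.32 and 1.20), Trim12c (1.27, 1.39 and 1.34) and Trim30b (0.92, 1.25 and 1.22) lay lower in the home cage library and enriched replicate 1. In enriched replicate 2 the order was mixed, and Trim12c and Trim21 lay above Trim30c, Trim30a and Trim30d. Trim34a, with 0.81, 0.95 and 0.60, was the gene under background in all 3 libraries, and Trim68 had 0.89, 0.89 and 1.06. Higher than any of these Trim genes in all 3 libraries was Ubqln5, a testis-expressed relative of the ubiquitin-binding ubiquilins, with 2.89, 2.70 and 2.16 times background, and Ubqlnl had 1.97, 2.2 and 1.49.

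For scale, Rrm1 had 0.72, 0.73 and 0.73 times background over its whole model, and Stim1 1.00, 0.94 and 0.98. On chromosome 2 Pramel7 had 1.95, 2.06 and 1.98, Pramel6 1.13, 2.38 and 1.09 and Fads2b, a fatty acid desaturase gene near the start of the array, 0.92, 1.12 and 1.00. A list of 16 housekeeping genes had medians of 0.52, 0.68 and 0.65. Of these, 15 of 16 were under background in all 3 libraries (93.8%, against 49.2% of autosomal protein-coding genes that are no receptors). A list of 16 hippocampal neuron genes had medians of 0.96, 0.89 and 1.02. Both lists include genes of the X chromosome, while the background and that share are autosomal.

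Genes that receptors depend on in the nose lay on both sides of background. Of 22 genes of olfactory transduction and receptor choice, 8 were over background in all 3 libraries (36.4%) and 9 were under it in all 3 (40.9%). Among autosomal protein-coding genes that are no receptors these shares were 23.5% and 49.2%, while the list includes a gene of the X chromosome. The 22 genes had medians of 0.94, 0.95 and 0.96. Summed over all their bases, which weights long genes most, they had 1.22 (1.19 to 1.25), 1.26 (1.24 to 1.29) and 1.18 (1.16 to 1.21) times background. Lhx2, a homeodomain factor of receptor choice, had 1.44, 1.75 and 1.52 times background, and Ebf4, a member of the Olf/Ebf family, 0.94, 1.01 and 0.94. Stoml3, a stomatin-like protein of sensory cilia, had 0.74, 1.09 and 0.88, and Kdm1a, the histone demethylase LSD1, 0.77, 0.76 and 0.89.

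Against the 22 other receptor arrays of at least 10 genes, the 2 intervals stood in the middle. The medians over all windows of an interval were exceeded by 11, 10 and 12 arrays for chromosome 2 and by 7, 7 and 12 for chromosome 7. The arrays were measured from first to last receptor gene, over windows with coverage. Measured that way, the arrays overlapping the intervals had 1.41, 1.44 and 1.14 on chromosome 2 and 1.44, 1.47 and 1.13 on chromosome 7, so the ranks are approximate. The other arrays fell into 6 with high and 16 with lower signal in enriched replicate 1. The high ones had 2.09 to 2.42 times background in the home cage, 2.13 to 2.73 in enriched replicate 1 and 1.47 to 1.69 in enriched replicate 2. The others had 0.97 to 1.67, 0.94 to 1.52 and 0.87 to 1.47, a range that includes both intervals.

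Neighbours on the same chromosome could differ by this much. The arrays at chr7:106677534-107148329 (28 genes) and chr7:107814586-108894405 (52 genes) had 2.13, 2.33 and 1.47, and 2.09, 2.13 and 1.51. The chromosome 7 interval had 0.68, 0.67 and 0.77 times the mean of those arrays (exact sign-flip p = 0.25). The array at chr2:36285060-37332732 (37 genes) was the highest of all, with 2.42, 2.73 and 1.69, and the one at chr2:111230853-112167982 (47 genes), with 1.42, 1.38 and 1.17, lay close to the chromosome 2 interval.

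**Figure D4:**
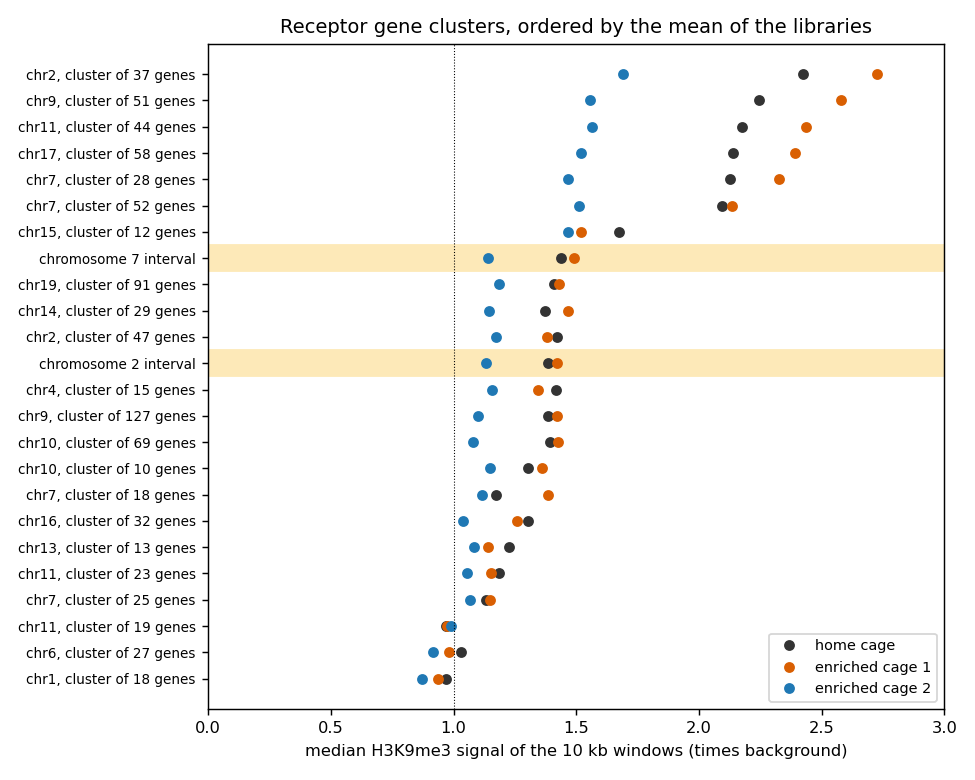
Median H3K9me3 signal of 10 kb windows (times background) in the 2 intervals (shaded) and in 22 other receptor arrays, ordered by the mean of 3 libraries, with 1 point per library. Of the other arrays, 6 lie apart at 2.13 or more in enriched replicate 1, and the intervals sit among the remaining 16.

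The enriched cage libraries did not lie on the same side of the home cage library in either interval on this scale. For the chromosome 2 interval the median of enriched replicate 1 differed from that of the home cage by a log2 value of 0.04 and enriched replicate 2 by -0.29, with a mean of -0.13. For the chromosome 7 interval it was 0.05 and -0.33, with a mean of -0.14. The exact two-sided permutation p was 1.00 for both, and 1 library against 2 cannot go below 0.333. The enriched libraries were 0.33 and 0.39 apart from each other on this scale, more than the mean difference from the home cage. Enriched replicate 2 was also the lowest library in 21 of 22 other receptor arrays. Divided by the median of windows in those arrays, the mean log2 differences turned to 0.02 and 0.01. On that scale both enriched libraries were above the home cage on chromosome 2, by 0.0174 and 0.0300 (exact permutation p = 0.333, the smallest possible), while on chromosome 7 they differed by 0.0294 and -0.0117. Over windows with at least 95% of their bases covered, both were below it on chromosome 2, by log2 values of -0.0165 and -0.385. On the first scale, without enriched replicate 2, the differences were 0.04 and 0.05.

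Window by window, limma was fitted to log2(signal + 0.25) over 235662 autosomal windows. The home cage arm is 1 library, assumed to vary like the 2 enriched libraries that give the spread, so a call compares with that library and cannot tell cage from library. The fit called 31 windows (0.0132%) at an adjusted p under 0.05, all higher in the enriched libraries. Of 492 windows tested on chromosome 2, 1 was called, and of 255 on chromosome 7, 0 were. At an unadjusted p under 0.05, 5 windows of chromosome 2 were higher and 23 lower, and 1 window of chromosome 7 was higher and 11 lower. Over all windows these shares were 4.23% higher and 2.92% lower.

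The window called was chr2:89870001-89880000, which overlaps no receptor gene. It had 0.28, 1.21 and 0.78 times background from 6, 59 and 25 fragments, with a share of 0.549 of its bases under a fragment in any library. The log2 change was 1.22 (SE 0.27, limma, adjusted p = 0.0433), on the log2(signal + 0.25) scale, which understates changes of low windows. It passed with a pseudocount of 0.1 (adjusted p = 0.0269) and with no filter on low values (0.0400), but not with a pseudocount of 0.5 (0.0706) or after quantile normalization (0.695). The home cage value rests on 6 fragments.

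On chromosome 7, where none passed, the window with the smallest p was chr7:103300001-103310000, which holds Olfr596, with 1.46, 0.69 and 0.53 times background (limma, adjusted p = 0.142). The home cage value was above both enriched values in 234 of 492 windows on chromosome 2 (47.6%) and 95 of 255 on chromosome 7 (37.3%), against 35.5% of all windows. It was below both in 83 (16.9%) and 40 (15.7%), against 33%. Enriched replicate 2 had the lowest value of the 3 libraries in 364 of 500 and 189 of 260 windows. The same share over all autosomal windows is not given here, so these counts cannot be called particular to the intervals. The part of that library in these counts was not tested.

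**Figure D5:**
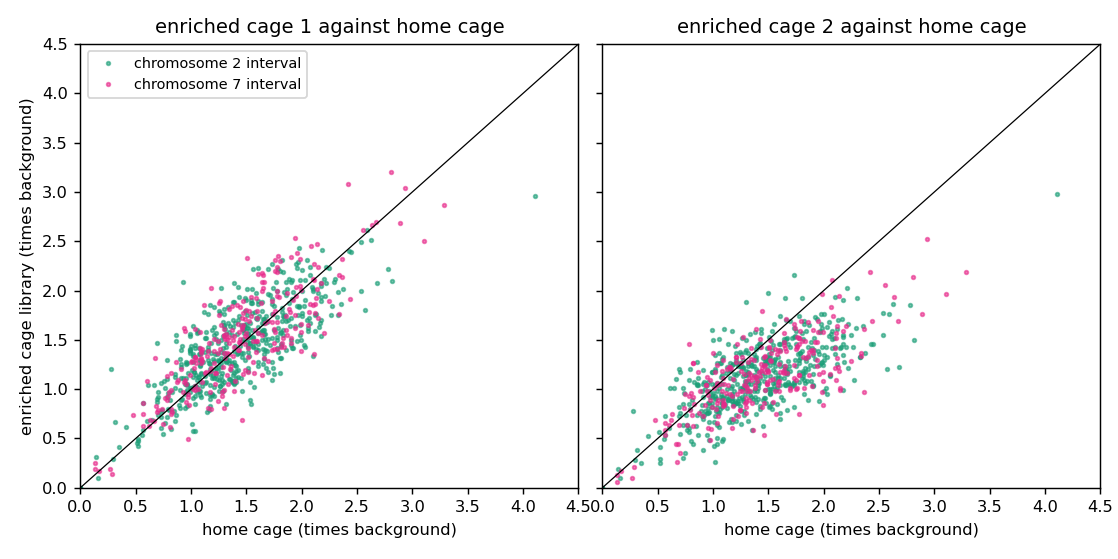
Signal of each 10 kb window of the 2 intervals (times background) in an enriched cage library (vertical axis) against the home cage library (horizontal axis), with the line of equal values. Windows of enriched replicate 1 scatter around the line, and most of those of enriched replicate 2 lie below it.

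Signal of the windows was correlated between libraries within the arrays. Pearson's r over the 500 windows of chromosome 2 was 0.80 between the home cage and enriched replicate 1, 0.72 between the home cage and enriched replicate 2 and 0.76 between the enriched libraries. Over the 260 windows of chromosome 7 it was 0.84, 0.76 and 0.78. Spearman's rho was lower, at 0.76, 0.66 and 0.70 on chromosome 2 and 0.80, 0.68 and 0.70 on chromosome 7. Over all autosomal windows r was 0.92, 0.89 and 0.88 and rho 0.74, 0.64 and 0.68. The home cage library was thus no farther from enriched replicate 1 than the enriched libraries were from each other. These windows share their genome sequence and the antibody, and the values are descriptions.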

How the data were processed

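H3K9me3 was measured by ChIP-seq in 3 hippocampus libraries. The authors deposited coverage as a scaled signal track per library. Signal values come in whole steps (tolerance 0.01), from which followed fragment lengths of 285, 207 and 238 bases and the fragment numbers. The submitters' processing notes list CASAVA 1.7, TopHat2, BWA 0.7.12, MACS2 and mm10 without their roles; duplicate and multiple-match handling is not given in the sources used here.

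Signal was averaged over 10 kb windows and gene models and divided by the library's median over autosomal windows with coverage. Share of bases under a fragment stood in for known bases, because no genome was used here. RefSeq models placed in the unsequenced first 3 Mb of a chromosome (340), whose positions refer to alternate scaffolds, were left out. Receptor arrays are runs of at least 10 receptor genes with gaps up to 500 kb. limma 3.58.1 (R 4.3.3, trend) was fitted with a pseudocount of 0.25 and a minimum mean of 0.25, and was checked on simulated data. Single values were tested with exact sign-flip or permutation tests, which with so few libraries show little beyond whether the libraries share a direction. Intervals are 95% exact Poisson. Windows were named as the 3 highest and lowest per interval, receptor genes as the 5 highest and lowest, and list genes in list order; 1 listed gene is not reported here. The intervals, lists and rules were chosen with earlier results of these data known.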

Additional observations from a re-analysis of the deposited data

How the results depend on the processing

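The mean chromosome 2 to chromosome 7 ratio kept its direction under 12 of 12 alternatives. It ran from -0.13 (only windows with a receptor gene) to -0.03 on the log2 scale. Not all of these could turn it: a changed background divides both intervals alike, and leaving out a library averages values that were all negative. Over windows with at least 95% of bases under a fragment the libraries had -0.03, -0.07 and 0.000404, so they no longer shared a direction. The mean level over libraries, 1.31 and 1.36 times background, moved to 1.02 and 1.05 when the background came from windows with at least 90% of bases under a fragment, and to 1.71 and 1.75 when only interval windows with at least 95% were kept. Both select windows by their own fragments, so they raise what is selected by construction. With 80% for windows and background alike, added after seeing the data, they were 1.29 and 1.33. The mean enriched cage difference, -0.13 and -0.14, turned to 0.0237 and 0.00886 when scaled by other receptor arrays, and ranged from -0.29 to 0.0388 and from -0.33 to 0.0508 with either enriched replicate left out. The share of windows past a limit in all 3 libraries was 10.8% and 13.1% at 1.5 times and 0% and 0% at 3 times. limma called 16 autosomal windows with a pseudocount of 0.5, 50 without a filter and 3 after quantile normalization, against 31. No paired analysis was possible because the home cage group has 1 library, so the groups share fewer than 2 replicate numbers. The alternative with a common range of G and C content was not run, for lack of a genome. Leaving out an enriched library left limma no residual degrees of freedom.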

Other observations

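Arrays of other gene families were measured in the same way, added after seeing the data. Of 11 arrays of vomeronasal receptors, which detect pheromones, several were higher than both olfactory intervals, such as chr7:11669599-13220289 (22 genes) with 2.47, 2.64 and 1.68 times background. The array at chr7:20101158-24055691 (86 genes) had 0.17, 0.17 and 0.10, and that at chr7:7212996-9223653 (17 genes) 0.09, 0.12 and 0.10. These medians lay under the 5th percentile of autosomal windows (0.48, 0.53 and 0.51). Of 354 vomeronasal receptor genes, 76, 63 and 78 were listed at 0. How much of these arrays reads can be placed on was not tested, so the low values cannot be read as absence of the mark. Of 8 zinc finger gene arrays, the one at chr17:21008941-23599755 (23 genes) had 1.80, 1.97 and 1.39, and the one at chr13:66670274-67827000 (25 genes) 1.38, 1.36 and 1.34, the latter with little difference between libraries.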
